A study of Mus musculus with 4 samples.

Results

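The genes described here are 9 multidomain members of the Bcl2 family: Mcl1, Bcl2l1, Bcl2, Bcl2l2, Bcl2a1b and Bcl2a1d, whose products keep cells alive, and Bax, Bak1 and Bok, whose products carry out the killing step. They were picked by symbol from the deposited expression table, and all 9 were found among its 53715 genes. Total RNA was sequenced from sorted CD4+CD8+ double-positive thymocytes, the most abundant T cell precursors of the thymus. The knockout (KO) group held 2 libraries from mice of genotype LCKCre/+ Srsf1fl/fl, in which the Cre recombinase gene is driven by the T lineage promoter of Lck and both Srsf1 alleles are floxed. The wild-type group (WT) held 2 libraries labelled WT, and the labels do not state whether those mice carried Cre or floxed alleles. All mice were C57BL/6 of 6 to 8 weeks. Srsf1 encodes an SR protein, an RNA-binding protein that acts in the choice of splice sites. Nothing in the labels says whether a library came from 1 animal or several, so p-values measure the spread between these libraries, which may be technical.

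The Bcl2 family decides whether the outer mitochondrial membrane stays closed. Bax and Bak1 form pores that release cytochrome c, the survival proteins bind and restrain them, and the BH3-only proteins, such as Bim (gene Bcl2l11) and Puma (gene Bbc3), respond to death signals by occupying the survival proteins or by activating Bax and Bak1. Double-positive thymocytes are known to depend on Bcl-xL, the product of Bcl2l1, and on Mcl-1, while Bcl2 itself is low at this stage and higher before and after it. In human cells, SRSF1 is known to act on the splicing of BCL2L1 and MCL1 transcripts, each of which also has a short form that lacks part of the groove that binds BH3 domains. Counts per gene, as used here, do not separate such forms.

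All 9 genes share a stretch that encodes the start of the BH1 domain, one wall of that groove. The 30 coding bases around it are shown because in Mcl1 and in Bcl2l1 they lie in exon 2, the exon that the human short forms leave out in whole or in part. The capitals mark the letters of the motif TGGGGNNNNNTNGT, which holds the letters that all 9 genes have in common within 14 bases, and every sequence runs 5′ to 3′ on the coding strand of GRCm38.
Mcl1, chr3:95659844-95659873, plus strand: gtaacaaacTGGGGcaggaTtGTgactctt
Bcl2l1, chr2:152829562-152829591, minus strand: ggagtaaacTGGGGtcgcaTcGTggccttt
Bcl2, chr1:106712440-106712469, minus strand: ggggtgaacTGGGGgaggaTtGTggccttc
Bcl2l2, chr14:54884649-54884678, plus strand: ggccctaacTGGGGccgtcTtGTggcattc
Bcl2a1b, chr9:89199606-89199635, plus strand: atcattaacTGGGGaaggaTtGTgactata
Bcl2a1d, chr9:88731444-88731473, minus strand: atcattaacTGGGGaaggaTtGTgactata
Bax, chr7:45465219-45465248, minus strand: aacttcaacTGGGGccgcgTgGTtgccctc
Bak1, chr17:27021305-27021334, minus strand: ggcatcagcTGGGGccgcgTgGTggctctc
Bok, chr1:93689285-93694088, plus strand: ggtatcacaTGGGGcaaggTaGTgtccctg

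Because the motif was drawn from these 9 sequences, its presence in each of them was fixed in advance and is no result. It stood in the reading frame once in each. Of the 21767 genes with a complete annotated coding sequence, 0.505% held it in frame, and 27.2% held its first letters alone (TGGGGN). The stretch lay within 1 exon except in Bok, where an intron splits it and the coordinates span that intron. Bcl2a1b and Bcl2a1d were identical over it.

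Each library held between 35862730 and 37033180 counts, so that 1 count was worth 0.0270 to 0.0279 CPM, a count scaled by the library total. Srsf1 had 8.70 and 8.53 RPKM, a count scaled by gene length and library total, in the KO libraries, against 23.5 and 21.5 RPKM in the WT libraries, a log2 fold change of -1.39 (SE 0.09). Of 16588 genes tested, 14.5% passed edgeR's quasi-likelihood test at an adjusted p under 0.05, 6.63% higher and 7.89% lower in KO. In 55.9% of the tested genes the CPM ranges of the groups did not overlap. Of 9 listed markers of double-positive thymocytes, not all confined to that stage (Ptcra and Cd3e are among them), 6 were higher and 0 lower in KO. Ptcra was 1 of the 6 (adjusted p = 0.0479 by edgeR). DESeq2 called 7 higher, limma-voom 9 and limma on log2 RPKM plus 0.5 called 4. The summed level of the 9 was 3572 and 3470 RPKM in KO, against 2554 and 2446 RPKM in WT.

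Mcl1 was the most abundant of the 9 genes in every library. Its mean level over the libraries ranked 116 among all genes of the table. In KO libraries the order per length ran from Mcl1 (mean 255 RPKM) through Bcl2l1 (53.8), Bax (27.0), Bak1 (14.9), Bcl2 (5.67), Bcl2a1d (1.36), Bcl2l2 (0.655) and Bok (0.163) to Bcl2a1b, which had 0 counts. In WT libraries the first 7 genes stood in the same order, with means of 220.2 RPKM for Mcl1, 67.1 for Bcl2l1, 24.6 for Bax, 11.8 for Bak1, 6.26 for Bcl2, 1.90 for Bcl2a1d and 0.963 for Bcl2l2, followed by Bcl2a1b (0.356) and Bok (0.0827). No pair of neighbours in either order overlapped in its library values, although in WT the lower Bcl2a1d library (1.02 RPKM) lay just above the higher Bcl2l2 library (0.994 RPKM). With 2 libraries a group these orders are descriptions, since an exact permutation test cannot go below p = 0.333.

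**Figure D1:**
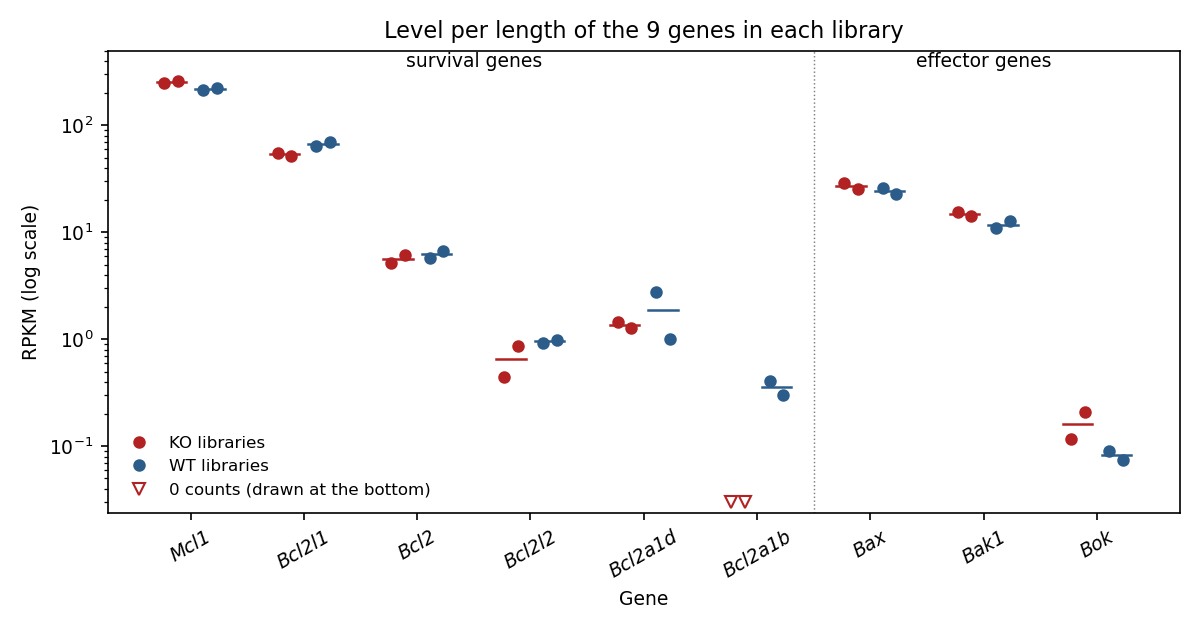
RPKM on a log axis for the 9 genes in each library, KO in red and WT in blue, with a line at each group mean and open triangles for 0 counts. Mcl1 sits at 250.2 and 260.4 RPKM in KO against 215 and 225 RPKM in WT, and Bcl2l1 at 55.5 and 52.2 RPKM in KO against 63.8 and 70.3 RPKM in WT.

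The KO against WT comparison asks how the survival and killing genes respond when Srsf1 is lost in thymocytes. Of the 9 genes, 7 had enough counts to be tested, and 2 passed: Mcl1 was higher and Bcl2l1 was lower in KO. Over all genes tested 14.5% passed, 6.63% higher and 7.89% lower in KO. The median log2 fold change of the 7 was -0.14, beside 0.00 over all genes tested, and it was -0.01 without KO replicate 1, -0.28 without KO replicate 2, 0.19 without WT replicate 1 and -0.02 without WT replicate 2. The groups did not overlap in 4 of the 7, a share close to the 55.9% of all genes. In these bulk libraries, fewer cells with a transcript and less of it per cell cannot be told apart.

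Mcl1, which encodes a short-lived survival protein that restrains Bak1 and Bim, had 250.2 and 260.4 RPKM in KO libraries, against 215 and 225 RPKM in WT libraries. Both KO libraries lay above both WT libraries. The group means were 255 ± 7.23 RPKM in KO and 220.2 ± 6.88 RPKM in WT (SD, n = 2 libraries each), a log2 fold change of 0.22 (SE 0.06, 95% interval 0.08 to 0.36, adjusted p = 0.0417 by edgeR). The gene (ENSMUSG00000038612.16) spans chr3:95658788-95663176 on the plus strand, and no annotated exon of another gene overlaps it. Mcl1 no longer passed once KO replicate 2 (adjusted p = 0.111 by edgeR), WT replicate 1 (0.271) or WT replicate 2 (0.127) was left out, while the log2 fold change stayed between 0.18 and 0.25 when each library was left out in turn. It also did not pass with limma on log2 RPKM plus 0.5 (adjusted p = 0.133), plus 0.1 (0.125) or plus 0.5 on genes averaging 1 RPKM or more (0.0878).

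Bcl2l1, the gene of Bcl-xL, had 55.5 and 52.2 RPKM in KO libraries, against 63.8 and 70.3 RPKM in WT libraries. Both KO libraries lay below both WT libraries. The group means were 53.8 ± 2.33 RPKM in KO and 67.1 ± 4.59 RPKM in WT (SD, n = 2 libraries each), a difference of -19.7%. The log2 fold change was -0.32 (SE 0.08, 95% interval -0.48 to -0.15), with adjusted p = 0.016 by edgeR. The counts behind it were 9424 and 8710 in KO and 10500 and 11779 in WT, and the gene (ENSMUSG00000007659.18, chr2:152780668-152831728, minus strand) overlaps no exon of another annotated gene. WT replicate 2 held the highest value, and without it the log2 fold change was -0.25 and the call was lost (adjusted p = 0.147 by edgeR). It was also lost in the same 3 limma fits (adjusted p = 0.0759, 0.0799 and 0.0687).

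**Figure D2:**
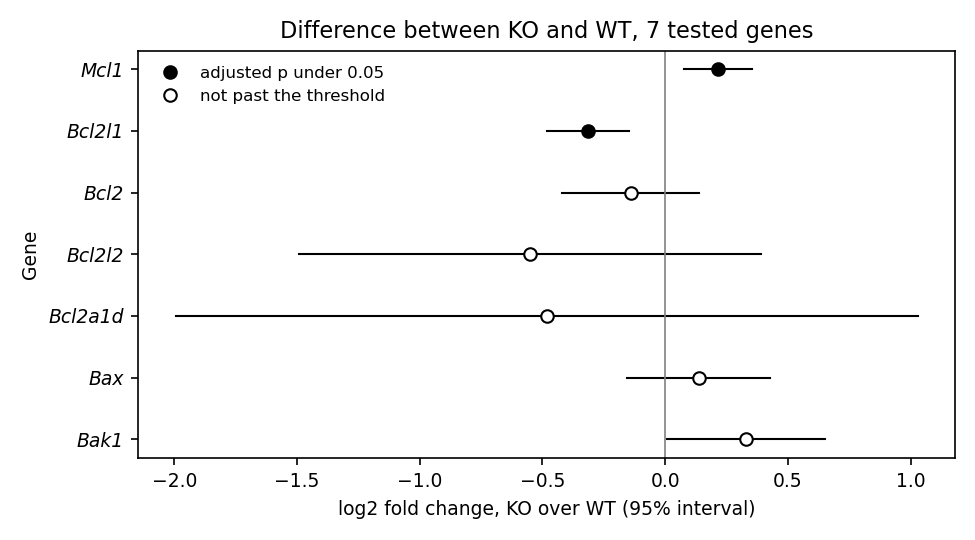
Log2 fold change of KO over WT with its 95% interval for the 7 tested genes, filled where the adjusted p was under 0.05. The intervals of Mcl1 (0.08 to 0.36) and Bcl2l1 (-0.48 to -0.15) lie on opposite sides of 0, and those of the low genes Bcl2l2 and Bcl2a1d are the widest.

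**Figure D3:**
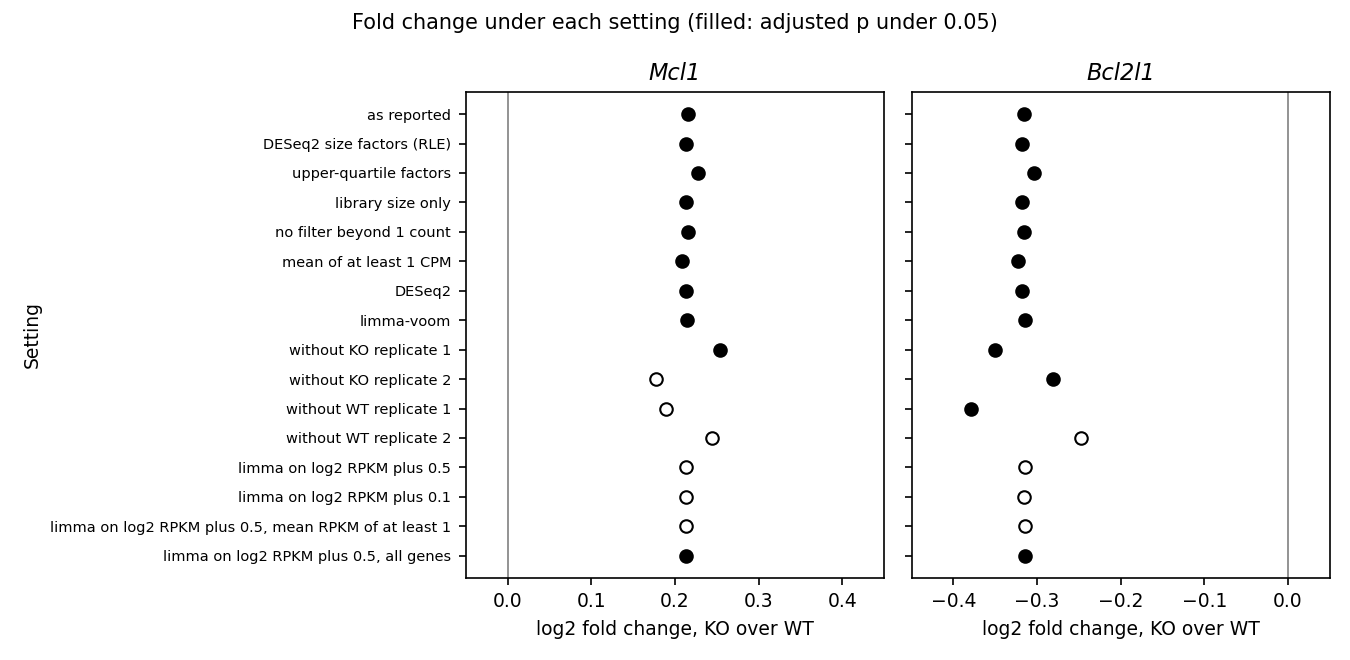
Log2 fold change of Mcl1 and Bcl2l1 as reported and under other scalings, filters, tests and sets of libraries, filled where the adjusted p was under 0.05. Every point drawn keeps its side of 0, and the open points drawn are fits with a library left out or on RPKM values, while the fit with a replicate block is not drawn.

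Bcl2, the founding survival gene of the family, had 5.15 and 6.18 RPKM in KO libraries, against 5.76 and 6.76 RPKM in WT libraries. The groups overlapped, and the difference did not pass the test (log2 fold change -0.14, SE 0.13, 95% interval -0.42 to 0.14, adjusted p = 0.555 by edgeR). Bcl2 shares 6.09% of its exon bases with D630008O14Rik on the other strand, which had 9 and 0 counts in KO and 1 and 0 counts in WT. Other stages of thymocyte development are known to hold more Bcl2, so their markers are given beside it. The 5 markers of mature single-positive thymocytes summed to 45.8 and 45.8 RPKM in KO and to 66.4 and 75.6 RPKM in WT, with 3 of 5 lower (Ccr7, S1pr1 and Klf2) and 1 of 5 higher in KO, and 0 higher without KO replicate 1. The 7 markers of double-negative thymocytes summed to 8.17 and 7.64 RPKM in KO and to 7.59 and 8.58 RPKM in WT. Their median log2 fold change was -0.79, beside 0.00 over all genes tested. By limma on the 2 that averaged 1 RPKM or more the median was 0.26. By edgeR, DESeq2 or limma-voom 0 of 7 passed, with 1 at an unadjusted p under 0.05 by edgeR. None of these markers was at 0 in all libraries, and their part in the Bcl2 values was not tested.

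Bcl2l2, which encodes the survival protein Bcl-w, had 74 and 140 counts in KO libraries, against 149 and 162 counts in WT libraries. Both KO libraries lay below both WT libraries, but the KO pair was spread widely. The log2 fold change was -0.55 (SE 0.43, 95% interval -1.49 to 0.39, adjusted p = 0.475 by edgeR). Leaving out KO replicate 1 gave -0.15, and leaving out KO replicate 2 gave -1.11. Bcl2l2 shares 13.3% of its exon bases with the gene Gm20521 on the same strand, which had 0 counts in every library, and the rule for reads in shared exons is not given in the sources used here.

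Bcl2a1b and Bcl2a1d encode 2 copies of A1, a survival protein induced by antigen receptor and inflammatory signals in many blood cells. Their coding sequences of 516 bases differ at 6 positions, an identity of 98.8%. The first 60 coding bases are shown with the differing letters in capitals, because such letters are what separates the copies.
Bcl2a1b, chr9:89199360-89199419, plus strand: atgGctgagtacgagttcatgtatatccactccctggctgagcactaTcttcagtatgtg
Bcl2a1d, chr9:88731660-88731719, minus strand: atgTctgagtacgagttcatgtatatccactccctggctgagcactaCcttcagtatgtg

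Of the 50-base windows of the Bcl2a1b transcript, 57.6% occur letter for letter in that of Bcl2a1d, so the split of counts between the copies is uncertain. The read length is not stated. Bcl2a1b also shares 49.1% of its exon bases with the gene model Gm29094 on the same strand, which had 0 counts throughout.

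Bcl2a1b had 0 counts in both KO libraries, against 12 and 9 counts in WT libraries. A count of 0 over the KO pair allows up to 0.0409 CPM (3 counts over the group, counting error only), beside 0.290 CPM in the WT pair. The WT level rests on few counts and has an error of its own, so no least fold difference is given. It was too low to be tested with the rest. Without a filter on low counts it did not pass (adjusted p = 0.36 by edgeR). Bcl2a1d had 46 and 40 counts in KO libraries, against 86 and 32 counts in WT libraries, and the groups overlapped (log2 fold change -0.48, SE 0.70, 95% interval -1.995 to 1.03, adjusted p = 0.744 by edgeR). WT replicate 1 set the sign, since without it the log2 fold change was 0.42 (adjusted p = 0.875). The 4 annotated copies of A1 together had 46 and 40 counts in KO and 98 and 48 counts in WT. The markers of myeloid and dendritic cells, which are known to express A1, summed to 15.6 and 8.87 RPKM in KO and to 14.6 and 11.4 RPKM in WT. Of those 11 markers 7 were tested, 0 passed by edgeR, DESeq2 or limma-voom, 0 had an unadjusted p under 0.05 by edgeR and S100a8 was at 0 in all libraries, and their part in the A1 counts was not tested.

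Neither of the 2 effector genes tested, Bax and Bak1, passed by edgeR, DESeq2 or limma-voom, and 1, Bak1, had an unadjusted p under 0.05 by edgeR. Bax, whose product moves from the cytosol to mitochondria to form pores, had 28.7 and 25.3 RPKM in KO libraries, against 26.1 and 23.1 RPKM in WT libraries. The groups overlapped (log2 fold change 0.14, SE 0.13, 95% interval -0.16 to 0.43, adjusted p = 0.594 by edgeR). Bax shares 12.2% of its exon bases with the gene model Gm45808 on the same strand, which had 0 counts in every library.

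Bak1, whose product sits in the mitochondrial membrane already, had 15.6 and 14.1 RPKM in KO libraries, against 10.9 and 12.7 RPKM in WT libraries. Both KO libraries lay above both WT libraries, with means of 14.9 ± 1.03 RPKM in KO and 11.8 ± 1.30 RPKM in WT (SD, n = 2 libraries each). The log2 fold change of 0.33 (SE 0.15, 95% interval 0.01 to 0.65) had an unadjusted p of 0.045 and an adjusted p of 0.17 by edgeR, and so was not called. Bak1 shares 18.2% of its exon bases with Ggnbp1 on the other strand, which had 78 and 64 counts in KO and 27 and 43 counts in WT. Bak1 itself had 1389 and 1237 counts in KO and 941 and 1120 in WT. The part of reads from shared exons in the Bak1 counts was not tested.

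Bok, a relative of Bax and Bak1 whose protein is found mainly at the endoplasmic reticulum, was near the limit of detection. It had 8 and 14 counts in KO libraries, against 6 and 5 counts in WT libraries. It was too low to be tested with the rest, and without a filter on low counts it did not pass (adjusted p = 0.867 by edgeR).

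The ratio of Mcl1 to Bcl2l1 was higher in both KO libraries than in both WT libraries. Within each library Mcl1 had 4.51 and 4.99 times the level of Bcl2l1 in KO, against 3.37 and 3.20 times in WT, all in RPKM. Mcl1 made up 80.0% and 81.1% of the summed RPKM of the 6 survival genes in KO and 74.5% and 73.9% in WT, and Bcl2l1 made up 17.7% and 16.3% in KO and 22.1% and 23.1% in WT. The summed level of the 6 survival genes was 313 and 321 RPKM in KO, against 289 and 304 RPKM in WT. The 3 effector genes summed to 44.4 and 39.7 RPKM in KO and 37.1 and 35.9 RPKM in WT. The ratio of the survival sum to the effector sum was 7.05 and 8.09 in KO and 7.79 and 8.49 in WT, and these groups overlapped. No test was made on these sums, since the genes were chosen with earlier results of these data known.

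**Figure D4:**
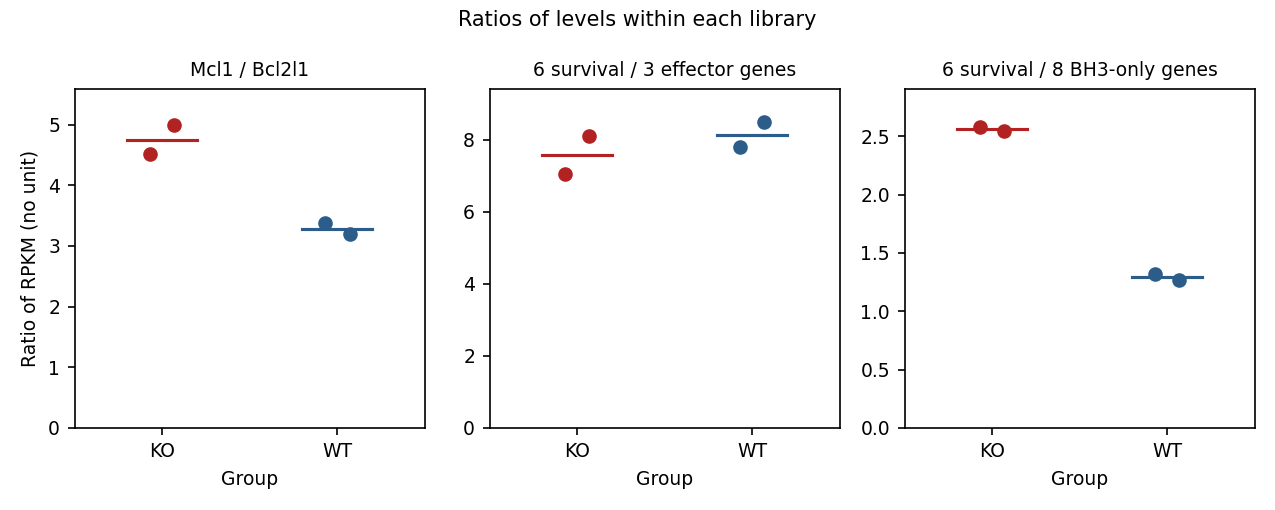
Ratios of RPKM within each library, KO in red and WT in blue, with lines at the group means and axes from 0. Mcl1 over Bcl2l1 is 4.51 and 4.99 in KO against 3.37 and 3.20 in WT, survival over effector genes overlaps between groups, and survival over BH3-only genes is 2.58 and 2.55 in KO against 1.32 and 1.27 in WT.

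The BH3-only genes are the upstream sensors of the pathway, and most of those tested were lower in KO. Of 8 listed, 7 were tested: 4 were lower in KO (7.89% over all genes tested) and 1 was higher (6.63%). Hrk was at 0 throughout. The median log2 fold change was -0.85, beside 0.00 over all genes. Bcl2l11 had 31.7 and 33.3 RPKM in KO, against 77.1 and 90.3 RPKM in WT (log2 fold change -1.36), and Bbc3 (-0.98), Bmf (-0.82) and Pmaip1 (-1.02) fell as well. Bid, whose product is cut by caspases to link death receptors to mitochondria, had 12.0 and 9.20 RPKM in KO, against 4.19 and 4.66 RPKM in WT (log2 fold change 1.26, SE 0.17, adjusted p = 0.000551 by edgeR). Exons of Bid overlap those of Bcl2l13 on the other strand. Bad, whose product binds Bcl-xL, had 9.62 and 11.3 RPKM in KO and 8.13 and 6.96 RPKM in WT, and did not pass (adjusted p = 0.135 by edgeR). Pmaip1 lost its call without KO replicate 2 (adjusted p = 0.133 by edgeR) and without WT replicate 2 (0.21), and 3 BH3-only genes were lower in each of these fits. The 8 BH3-only genes summed to 121 and 126 RPKM in KO, against 219.6 and 241 RPKM in WT, so that the survival sum was 2.58 and 2.55 times the BH3-only sum in KO and 1.32 and 1.27 times in WT.

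Downstream of Bax and Bak1, calls went both ways. Of 21 genes of the mitochondrial step and the apoptosome, 3 were higher (6.63% over all genes tested), 3 lower (7.89%) and 15 not called. Their median log2 fold change was 0.13. The outer membrane channels Vdac1 (0.41) and Vdac3 (0.45) and the caspase inhibitor Xiap (0.35) rose, and the ubiquitin ligases Birc2 (-0.40) and Birc3 (-0.66) were among those that fell. Vdac2, which holds Bak1 in check at the membrane, had 30.1 and 28.0 RPKM in KO and 27.5 and 28.1 RPKM in WT (adjusted p = 0.688 by edgeR). Without WT replicate 1, 0 of the 21 were higher and 1, Birc3, was lower, and 1, Xiap, was higher without KO replicate 1. Leaving out KO replicate 1 ended the calls of Vdac1 (adjusted p = 0.0848 by edgeR) and Vdac3 (0.113). Xiap was not called without KO replicate 2 (adjusted p = 0.0957 by edgeR) or WT replicate 2 (0.057).

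Among 17 genes known to act on the survival genes or their proteins, 3 were higher in KO, 6 lower and 8 not called. Over all genes tested the shares were 6.63% higher and 7.89% lower. The median log2 fold change of the 17 was 0.01. Of those that act on Bcl2l1 or Bcl2 transcription, Rel (-0.79), Myb (-0.50) and Stat5a (-0.48) fell, and Tcf7 (0.39) and Nfkb1 (0.27, adjusted p = 0.0495 by edgeR) rose. Stat5a overlaps Stat3 on the other strand. Of those that set the life of the Mcl-1 protein, the ubiquitin ligase subunit Fbxw7 (-0.48), the kinase Gsk3b (-0.34) and the deubiquitinase Usp9x (-0.37) fell. The direction was not shared by all, since Huwe1 (0.14, adjusted p = 0.241 by edgeR) and Btrc (0.46, 0.064) of the same list were not called. In both of these genes the KO libraries lay above the WT libraries. Trp53, whose product activates Bax and Bbc3, rose (0.35, SE 0.09, adjusted p = 0.0166 by edgeR). Trp53 was not called without KO replicate 2 (adjusted p = 0.0648 by edgeR) or WT replicate 1 (0.0884), nor Gsk3b without KO replicate 1 (0.0879) or WT replicate 1 (0.0523), nor Usp9x without WT replicate 2 (0.0509). Nfkb1 was not called when any library was left out (adjusted p from 0.051 to 0.287), and without WT replicate 1 only Tcf7 of the 3 was higher.

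**Figure D5:**
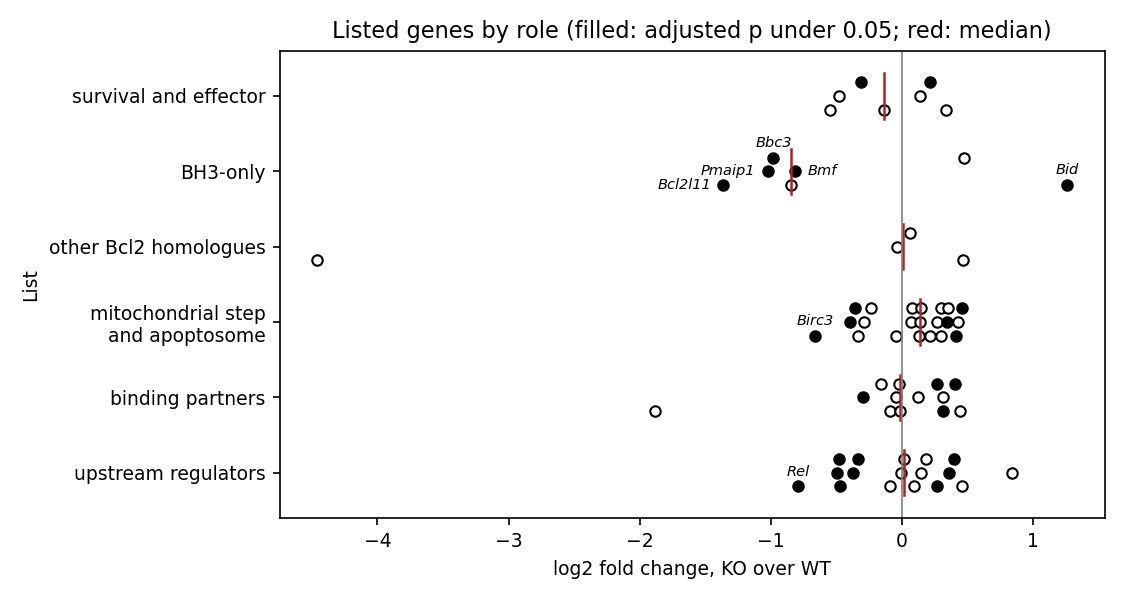
Log2 fold change of KO over WT for every tested gene of 6 lists, filled where the adjusted p was under 0.05, with a red line at each list's median. The BH3-only genes reach from -1.36 (Bcl2l11) to 1.26 (Bid), while the tested survival and effector genes lie between -0.55 and 0.33.

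The genes whose library pattern lay nearest to a called gene were found by Euclidean distance between centred log2 CPM values over the 4 libraries, among 6775 genes of at least 20 CPM. Nearest to Mcl1 were Kdm3b (distance 0.00978 log2 units), Ankrd54 (0.0118) and Ppp2r5d (0.0119). Nearest to Bcl2l1 were Lrpap1 (0.00505), Arhgap12 (0.0133) and Mettl8 (0.0243). These distances are descriptions, with no test. Of the 6, Lrpap1 was itself past the threshold (log2 fold change -0.31, adjusted p = 0.039 by edgeR).

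Sorted libraries can hold other cells, so the levels of their markers are given here. The 6 B cell markers summed to 12.4 and 14.4 RPKM in KO and to 7.87 and 6.67 RPKM in WT, most of it from Cd79b (log2 fold change 0.89, adjusted p = 0.0239 by edgeR), which lost its call without KO replicate 2 (adjusted p = 0.098) or WT replicate 2 (0.103). The 5 markers of innate and gamma delta T cells summed to 15.5 and 13.9 RPKM in KO and to 9.28 and 11.3 RPKM in WT. Of the 3 tested, Trdc was called higher (log2 fold change 0.59, adjusted p = 0.0133 by edgeR), and 2 had an unadjusted p under 0.05. The markers did not move as 1: the 2 that averaged at least 1 CPM, Trdc and another, had a median log2 fold change of -0.23, so the other was lower in KO. Trdc was not called without KO replicate 1 (adjusted p = 0.0593 by edgeR) or WT replicate 1 (0.0728). The 8 markers of thymic stroma summed to 24.9 and 23.6 RPKM in KO and to 25.2 and 28.1 RPKM in WT. Most of that sum came from Pecam1, with 19.2 and 18.6 RPKM in KO and 19.7 and 21.8 RPKM in WT. The 5 erythroid markers summed to 0.374 and 3.41 RPKM in KO and to 0.694 and 5.67 RPKM in WT. There were 0 calls in either list by edgeR, DESeq2 or limma-voom, and 0 at an unadjusted p under 0.05 by edgeR. Without KO replicate 1, 1 stroma marker was higher. Foxn1, the defining transcription factor of thymic epithelium, and Ncr1, a natural killer cell receptor, were at 0 in all libraries. The part of such cells in the levels of the 9 genes was not tested.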

How the data were processed

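The authors deposited raw counts per gene for each library. They also deposited a table of RPKM values with a gene length in bases, and each RPKM could be recomputed from the count, the length and the library total within a relative tolerance of 1e-06. Per the submitters' processing notes, the build was GRCm38 (mm10) and the tools were STAR 2.6.0a, HTSeq 0.6.1, cutadapt 1.17, DESeq2 1.24.0 and FastQC 0.11.5. Strand setting, annotation release and read length are not stated there, so overlapping genes may share reads.

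KO was set against WT on the counts by edgeR 4.0.16 in R 4.3.3 (robust quasi-likelihood fit, TMM factors, filterByExpr, genotype as the only term). Two-sided p-values were adjusted by Benjamini-Hochberg over all 16588 genes, and a gene was called under 0.05. Standard errors came from the fold change and the F statistic, and 95% intervals are unadjusted. Bok and Bcl2a1b did not pass the filter. The test was tried on simulated counts. Alternatives were other scalings and filters, DESeq2 1.42.0, limma-voom (limma 3.58.1), limma on log2 RPKM plus 0.5 or 0.1, a replicate block and leaving out each library.

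The replicates were distinct libraries: chi-square over degrees of freedom was 19.0 for the KO pair and 16.7 for the WT pair, over genes with at least 10 counts in the pair. Sequences and coordinates came from GENCODE for mouse (GRCm38), on the first principal coding transcript, with 53620 identifiers matched. The named genes were the 9 members, Srsf1, the listed genes past the threshold with at most 4 abundant others per list, and the 3 nearest genes to each called member. Some listed genes are counted but not reported here by name. The members and lists were chosen with earlier results of these data known. Figures used Python 3.11.15 and matplotlib 3.10.9.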

Additional observations from a re-analysis of the deposited data

How the results depend on the processing

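The log2 fold changes of Mcl1, Bcl2l1, Bcl2, Bcl2l2, Bax and Bak1 kept their sign under every alternative run that gave a value, although those of Bcl2 and Bax came close to 0, and the cause of each lost call was not tested. Left-out libraries gave log2 fold changes of 0.18 to 0.25 for Mcl1, -0.38 to -0.25 for Bcl2l1, -0.29 to -0.01 for Bcl2 (nearest 0 without KO replicate 1), -1.11 to -0.15 for Bcl2l2, 0.05 to 0.23 for Bax (lowest without WT replicate 2), 0.23 to 0.44 for Bak1 and -1.03 to 0.42 for Bcl2a1d, which reversed to 0.42 without WT replicate 1. They gave 0 to 1 genes called higher and 0 to 1 called lower. With limma on log2 RPKM plus 0.5, on log2 RPKM plus 0.1, and with 0.5 on genes averaging 1 RPKM or more, the log2 fold changes were 0.21, 0.21 and 0.21 for Mcl1 (adjusted p = 0.133, 0.125 and 0.0878 by limma) and -0.31, -0.32 and -0.31 for Bcl2l1 (0.0759, 0.0799 and 0.0687), so that 0 were called higher and 0 lower. The 3 settings called 398, 392 and 483 genes of the table higher and 542, 553 and 621 lower, against 1100 and 1308 by edgeR. Over all 53715 genes limma called both (2120 higher and 2248 lower in all), but most residual variances there were exactly 0, which makes its p-values unreliable. DESeq2 called Mcl1 (adjusted p = 0.0108) and Bcl2l1 (0.00158). The numbers 1 and 2 in the labels mark no stated litter or batch, and deviations of same-numbered libraries from their group means correlated at -0.04 over genes. With the replicate number as a block the log2 fold change of Mcl1 was 0.22 (adjusted p = 0.0504 by edgeR), so that 0 were called higher, and the block changed no other call among the 9. Of the other genes named, Itpr3 lost its call with the block (0.0553). Alone in its group, a library was assumed to vary like the other pair. Depth limits Bok, Bcl2a1b and Bcl2a1d, at 86 counts or fewer.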

Other observations

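Other Bcl2 homologues outside the 9 genes gave no call. Of 7 listed, 4 were tested and 0 passed by edgeR, DESeq2 or limma-voom, with 0 at an unadjusted p under 0.05 by edgeR. Bcl2l13, a mitochondrial homologue known to act in mitophagy, had 9.08 and 9.20 RPKM in KO libraries and 9.30 and 9.50 RPKM in WT libraries (log2 fold change -0.04, adjusted p = 0.854 by edgeR), and its exons overlap those of Bid on the other strand. Bcl2l12 had 4.65 and 6.08 RPKM in KO and 4.11 and 3.69 RPKM in WT (0.46, adjusted p = 0.289), and it overlaps Irf3 on the other strand. Bcl2l14, named after its values were seen, had 0 and 1 counts in KO and 14 and 13 counts in WT, and did not pass (adjusted p = 0.227). Bcl2a1c was at 0 in all libraries.

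Of 13 partners that bind Bcl2 proteins at the endoplasmic reticulum or in autophagy, 3 rose, 1 fell and 9 were not called. Over all genes tested the shares were 6.63% higher and 7.89% lower. The median log2 fold change of the 13 was -0.01, beside 0.00 over all genes. It turned positive without KO replicate 1 (0.04), WT replicate 1 (0.08) or WT replicate 2 (0.07). It was also positive with the filter at a mean of 1 CPM (0.05) and with limma on genes averaging 1 RPKM or more (0.04). Tmbim6, an endoplasmic reticulum protein known to oppose Bax, had 82.8 and 84.4 RPKM in KO and 68.6 and 66.5 RPKM in WT (log2 fold change 0.31, SE 0.07, adjusted p = 0.0111 by edgeR). Bcap31 (0.40) and the calcium channel gene Itpr3 (0.27, adjusted p = 0.0454) rose, and the mitophagy receptor gene Bnip3l (-0.30) fell. The autophagy gene Becn1 had 16.5 and 16.4 RPKM in KO and 17.9 and 17.3 RPKM in WT (adjusted p = 0.548). Without WT replicate 2, 0 of the 13 were higher. Bnip3l lost its call by edgeR without KO replicate 2 or WT replicate 1. Besides the fit without WT replicate 2, Bcap31 was not called without KO replicate 1, nor Itpr3 without KO replicate 2 or WT replicate 1.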
